A study of Rattus norvegicus with 8 samples.

Results

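The extracellular matrix and fibroblast genes described here are a fixed list of 48 symbols: collagens, matrix glycoproteins, proteoglycans, enzymes that crosslink the matrix, and markers of fibroblasts. They were measured on 8 Affymetrix rat expression arrays of the ventral prostate. A probe set, which is a group of short probes read as 1 value, was taken when its annotation gave exactly 1 of these symbols. The rule found 78 probe sets of 47 genes among 31042 probe sets that are no array controls, and Thbs1 was not analysed here. Of the 78 probe sets, 73 passed a filter on low signal, and each of the 47 genes kept its brightest probe set. Of those 73, 6 had a whole prostate mean under the filter and passed through their epithelium level, and 0 passed the other way. Gene counts below use that brightest probe set.

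The arrays form 4 groups of 2, and all animals were males of the F3 generation bred from Sprague-Dawley founders. The groups were whole ventral prostate of the vinclozolin lineage at 180 days of age, whole ventral prostate of the control lineage at 180 days, prostate epithelium of the vinclozolin lineage at 45 days, and prostate epithelium of the control lineage at 45 days. Vinclozolin is a fungicide with antiandrogenic activity, and the study's title asks about its effects across generations. Pregnant founder females were injected intraperitoneally between gestation day 8 and day 14, and the F3 animals descend from them through F1 and F2. The protocol text of all 8 samples names DMSO, the vehicle, as the injected agent, so membership of the vinclozolin lineage rests on the sample titles. Each epithelium sample pooled 11 animals, and each whole prostate sample pooled an unstated number of glands. Nothing in the labels tells whether both samples of a group hold different animals, and the spread behind each p-value is that between pools, which may be technical. Age and preparation changed together, so a difference between whole prostate and epithelium cannot be told apart from a difference between 180 and 45 days.

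The matrix of the prostate surrounds its glandular ducts. Fibroblasts and smooth muscle cells make most of its fibrillar collagen, elastic fibres and proteoglycans, while a basement membrane of collagen IV, laminins, nidogen and perlecan lies beneath the epithelium and around vessels and muscle cells. Lysyl oxidases crosslink collagen and elastin after secretion, and matricellular proteins such as Sparc and periostin modulate how cells attach to this scaffold.

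Values are given as normalised intensity, in units on a linear scale after quantile normalisation of log2(intensity + 16). Changes are log2 differences ± standard error from limma, a linear model fitted to all 8 arrays. They understate the change of dim probe sets because of the added 16, and so do the folds, which are taken from them. A change was called at a Benjamini-Hochberg adjusted p under 0.05 over all 21729 probe sets tested. Before normalisation the arrays differed by preparation: their medians lay between 28.7 and 31.5 units in whole prostate, against 36.2 to 38.7 units in epithelium. Values under 16 units made up 32.7% to 36.7% of whole prostate arrays, against 28.3% to 30.8% of epithelium arrays. The ratio of the 3′ to the 5′ actin control probe sets was 3.37 and 3.14 in vinclozolin whole prostate and 3.74 and 3.98 in control whole prostate, against 2.35 and 2.26 in vinclozolin epithelium and 2.57 and 2.27 in control epithelium. All whole prostate arrays therefore had higher ratios than the epithelium arrays, and a higher ratio stands for poorer RNA or labelling quality. Within whole prostate, both control arrays had higher ratios than both vinclozolin arrays. The part of these differences in the results was not tested.

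The label epithelium was set against marker genes before the members were described. Luminal epithelial markers were strong in both preparations: the summed level of 11 genes was 20632 and 20860 units in vinclozolin whole prostate and 22226 and 22140 units in control whole prostate, against 20763 and 20654 units in vinclozolin epithelium and 20471 and 20300 units in control epithelium. Smooth muscle markers went against a pure epithelium. Their 11 genes summed to 7939 and 7457 units in vinclozolin whole prostate and 7849 and 8038 units in control whole prostate, against 18143 and 18424 units in vinclozolin epithelium and 19590 and 19335 units in control epithelium. Mylk alone gave 5819 and 5420 units in vinclozolin whole prostate and ran the other way, with 4801 and 4767 units in vinclozolin epithelium. The other 10 genes had lower means in whole prostate in each lineage. Acta2, the smooth muscle actin, read 183 and 175 units in vinclozolin whole prostate and 119 and 163 units in control whole prostate, against 1736 and 1796 units in vinclozolin epithelium and 2132 and 1754 units in control epithelium. The samples labelled epithelium thus carried more smooth muscle RNA signal than the whole gland samples, and the name epithelium is kept below only as the label.

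The matrix genes followed the same division. In the vinclozolin lineage, 32 of the 47 genes were lower and 2 were higher in whole prostate than in epithelium, and in the control lineage 32 were lower and 3 higher. Arrays of the 2 preparations did not overlap for 4 genes that were higher and 38 that were lower in each lineage. Over all probe sets these shares were 36.2% higher and 29.2% lower (65.4% in all) in the vinclozolin lineage and 37.4% higher and 29.2% lower (66.6% in all) in the control lineage. Of all probe sets tested, 27.4% were called in the vinclozolin lineage and 27.8% in the control lineage. Across them, 13.1% were called lower and 14.2% higher in the vinclozolin lineage, and 12.9% lower and 15% higher in the control lineage. The median change of the 47 genes was -1.06 in the vinclozolin lineage and -0.91 in the control lineage, beside medians over all probe sets of 0.057 in the vinclozolin lineage and 0.055 in the control lineage. By unadjusted p under 0.05, 40.3% of all probe sets passed in the vinclozolin lineage and 40.1% in the control lineage. The split of the calls depended on the scaling: 52.1% of the vinclozolin and 53.7% of the control calls were higher in whole prostate, with median centring in place of quantile normalisation 67.5% and 71.1% were, and on the values as deposited 43.8% and 46.2% were. The medians over all probe sets were -0.04 in the vinclozolin lineage and -0.039 in the control lineage on the values as deposited, and 0.17 and 0.196 with median centring. Between the lineages, in contrast, 0 of the 47 genes passed the test in either preparation.

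The summed level of the 47 genes, set mostly by its brightest genes, gives the size of the difference on a linear scale. It was 10321 and 10071 units in vinclozolin whole prostate and 10075 and 10169 units in control whole prostate, against 24094 and 23043 units in vinclozolin epithelium and 25348 and 24693 units in control epithelium. All 4 whole prostate arrays lay close together and far under all 4 epithelium arrays. In such bulk RNA, fewer cells of a type and less RNA per cell cannot be told apart.

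**Figure D1:**
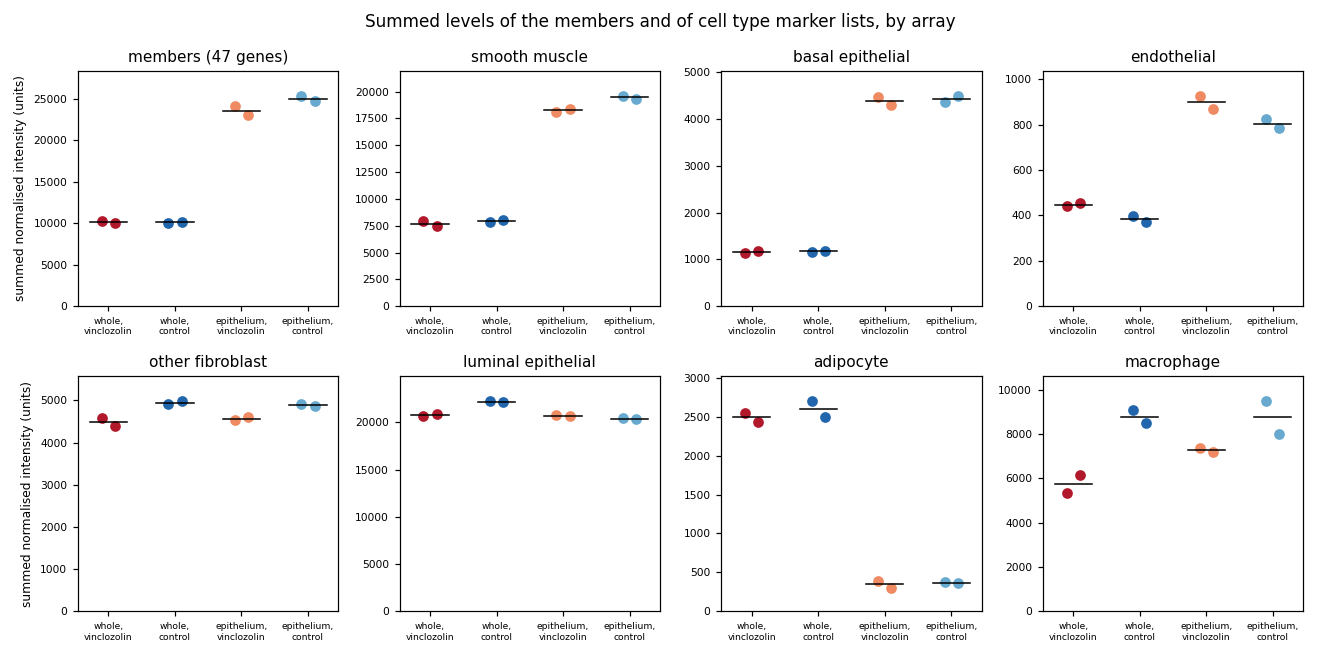
Summed normalised intensity (units, linear axes from 0) of the 47 member genes and of 7 cell type marker lists on each array, with points for arrays and lines for the mean of 2 arrays. The members, smooth muscle, basal and endothelial lists are higher on all epithelium arrays, the adipocyte list is higher on all whole prostate arrays, and the luminal list is close to level.

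The 2 lineages gave largely matching lists from separate arrays, which shared 1 normalisation and 1 model fit. In total 31 genes were called lower in whole prostate in both lineages and 2, Dpt and Col14a1, were called higher in both. Of all probe sets, 8.73% were lower and 8.5% higher in both. Lamb2 passed as lower only in the vinclozolin lineage and Loxl1 only in the control lineage, while Fbln2 passed as higher only in the control lineage. None of these 3 genes passed the test of the difference between the lineages. Of the genes called lower, 25 in the vinclozolin lineage and 21 in the control lineage changed by at least 1 log2 unit. At least 2 log2 units were reached by 8 and 7 of them. The shares of all probe sets at these sizes were not computed, so the counts describe the members only.

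**Figure D2:**
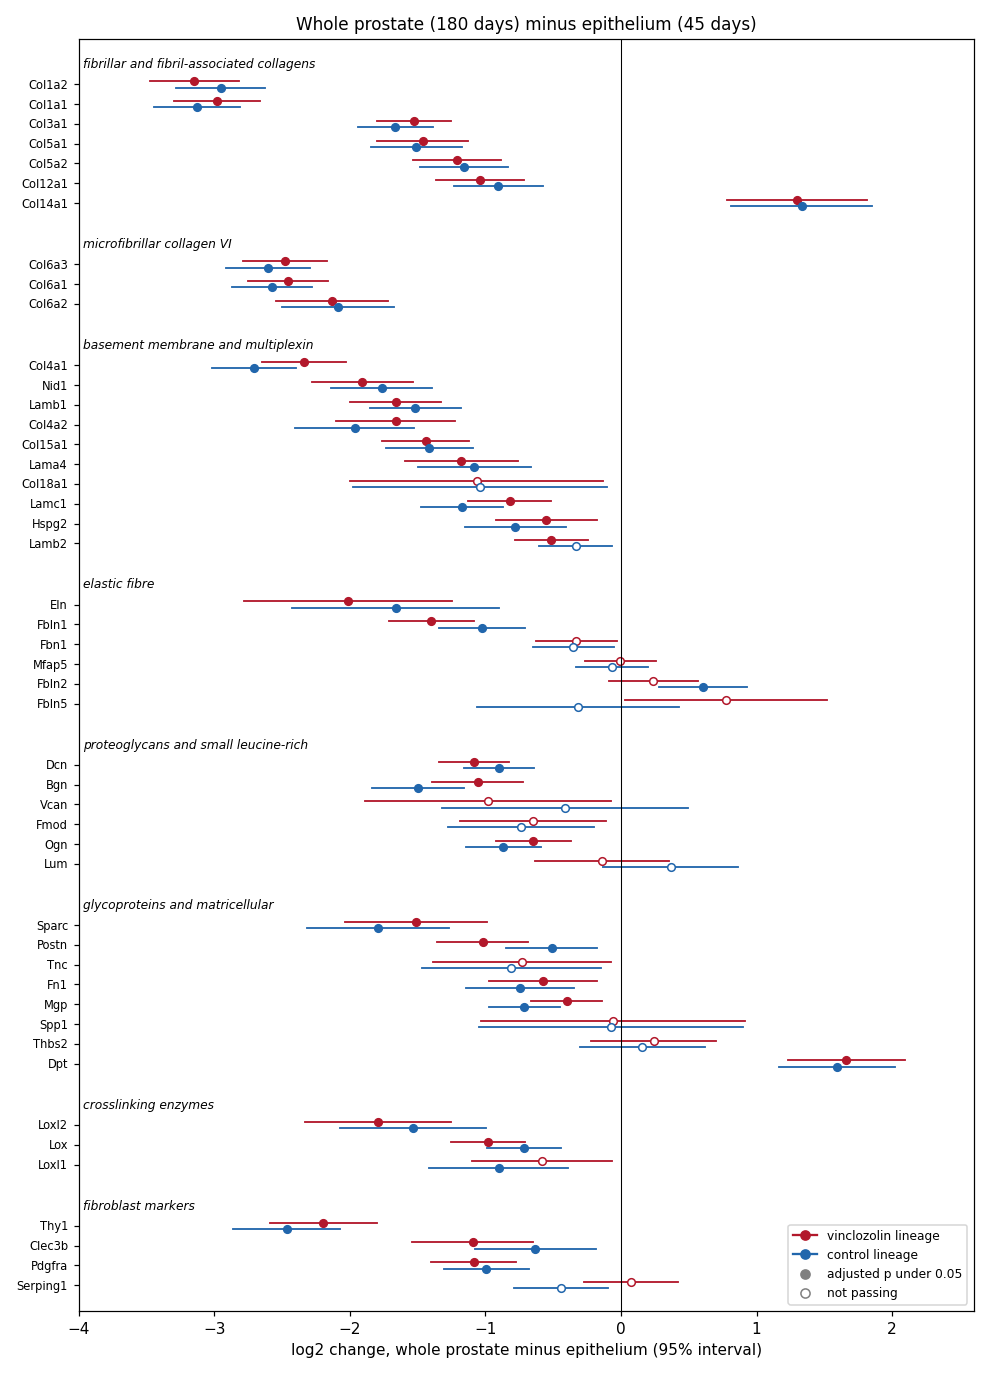
Log2 change of each of the 47 genes, whole prostate at 180 days minus epithelium at 45 days, in the vinclozolin lineage (red) and the control lineage (blue), ordered by role. Bars are 95% intervals and filled points passed at an adjusted p under 0.05. Most points lie left of 0, and Col14a1 and Dpt lie to the right in both lineages.

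Among the fibrillar and fibril-associated collagens, 6 of 7 were lower and 1 was higher in whole prostate in both lineages, with median changes of -1.46 in the vinclozolin lineage and -1.51 in the control lineage. Col1a1, a chain of type I collagen, the main fibre of connective tissue, read 217 and 255 units in vinclozolin whole prostate and 190 and 224 units in control whole prostate, against 2009 and 1923 units in vinclozolin epithelium and 1938 and 1921 units in control epithelium. No whole prostate array came near an epithelium array. The change was -2.98 ± 0.13 in the vinclozolin lineage, a 7.89-fold lower level in whole prostate (limma adjusted p = 8.2e-05), and -3.13 ± 0.13 in the control lineage, 8.74-fold lower (limma adjusted p = 6.4e-05). Col1a2, the partner chain, read 244 and 211 units in vinclozolin whole prostate and 237 and 254 units in control whole prostate, against 2217 and 2066 units in vinclozolin epithelium and 1849 and 2180 units in control epithelium. Its changes of -3.15 ± 0.14 in the vinclozolin lineage and -2.95 ± 0.14 in the control lineage were close to those of Col1a1.

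Col3a1, the type III collagen of reticular fibres, differed less. It read 689 and 689 units in vinclozolin whole prostate and 750 and 656 units in control whole prostate, against 2024 and 2009 units in vinclozolin epithelium and 2300 and 2217 units in control epithelium. The changes were -1.53 ± 0.11 in the vinclozolin lineage and -1.66 ± 0.11 in the control lineage. Type V chains start collagen I fibrils, and Col5a1 read 58.2 and 69.6 units in vinclozolin whole prostate and 46.8 and 57.9 units in control whole prostate, against 197 and 211 units in vinclozolin epithelium and 169 and 188 units in control epithelium. Col5a1 changed by -1.46 ± 0.14 in the vinclozolin lineage and -1.51 ± 0.14 in the control lineage, and Col5a2 by -1.21 ± 0.14 in the vinclozolin lineage and -1.16 ± 0.14 in the control lineage. Col12a1, a collagen on the fibril surface, changed by -1.04 ± 0.14 in the vinclozolin lineage and -0.91 ± 0.14 in the control lineage.

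Col14a1, another fibril-associated collagen, ran the other way. It read 113 and 113 units in vinclozolin whole prostate and 92.3 and 101 units in control whole prostate, against 25.5 and 50.3 units in vinclozolin epithelium and 26.7 and 30.8 units in control epithelium. The change was 1.30 ± 0.22 in the vinclozolin lineage (limma adjusted p = 0.00716) and 1.33 ± 0.22 in the control lineage (limma adjusted p = 0.00642), and its other probe set also passed as higher in both lineages. Dpt, encoding dermatopontin, a small protein that binds decorin and collagen, was the other gene of this kind. It read 516 and 432 units in vinclozolin whole prostate and 397 and 467 units in control whole prostate, against 161 and 118 units in vinclozolin epithelium and 139 and 125 units in control epithelium. The whole prostate arrays all lay above the epithelium arrays, and the change was 1.66 ± 0.18 in the vinclozolin lineage and 1.59 ± 0.18 in the control lineage. A second Dpt probe set gave 1.07 ± 0.19 in the vinclozolin lineage and 0.58 ± 0.19 in the control lineage, where it did not pass (limma adjusted p = 0.0623).

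**Figure D3:**
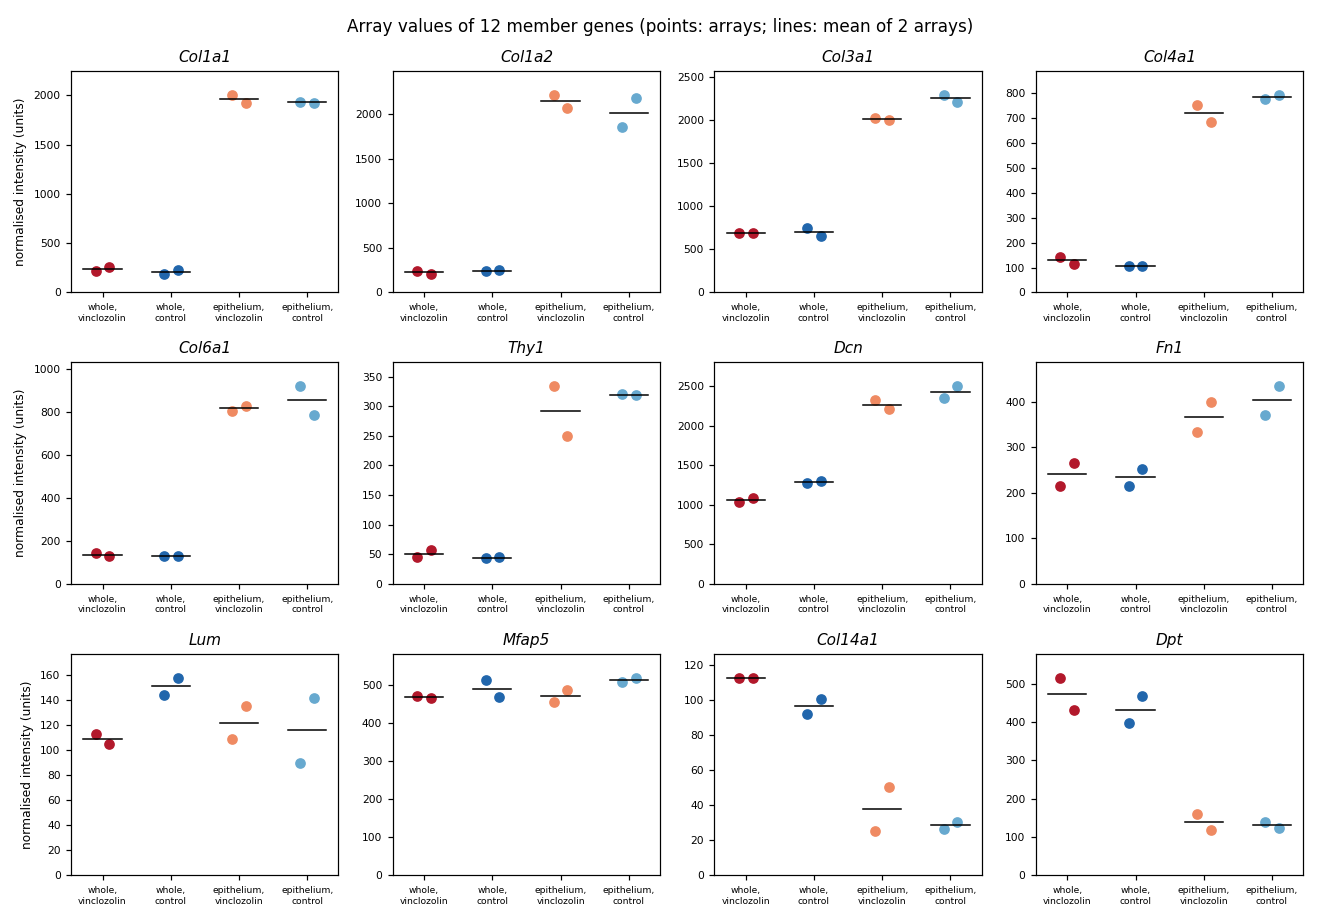
Normalised intensity (units, linear axes from 0) of 12 member genes on each of the 8 arrays, with points for arrays and lines for the mean of 2 arrays. Type I, III, IV and VI collagens, Thy1, Dcn and Fn1 are lower on the whole prostate arrays, and Col14a1 and Dpt are higher. Mfap5 overlaps between the preparations in both lineages, and Lum in the vinclozolin lineage only.

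Sequence upstream of genes that moved in opposite directions, and between a pair that moved together, is shown to set their promoters side by side. It is RefSeq sequence of build GRCr8, 5′ to 3′ on the + strand, and capitals mark every match, on either strand, to the CCAAT box, to the TATA box in the form TATAAA, or to the GC box in the form GGGCGG. Col1a2 stands for the lower genes at chr4:33518307-33518406, Dpt for the higher ones at chr13:79656191-79656340, and the third is the whole stretch between the starts of the divergently transcribed Col4a2 and Col4a1 at chr16:84885521-84885596.
Col1a2: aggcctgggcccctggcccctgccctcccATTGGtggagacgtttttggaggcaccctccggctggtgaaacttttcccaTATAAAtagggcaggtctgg
Dpt: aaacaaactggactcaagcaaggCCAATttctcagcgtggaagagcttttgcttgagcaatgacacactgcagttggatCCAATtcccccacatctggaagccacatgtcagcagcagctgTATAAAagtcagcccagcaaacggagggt
Col4a2 to Col4a1: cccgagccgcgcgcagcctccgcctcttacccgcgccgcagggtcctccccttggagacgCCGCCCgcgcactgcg
The Col1a2 stretch holds a CCAAT box 221 bases and a TATA box 170 bases before the annotated start. The Dpt stretch holds CCAAT boxes 127 and 71 bases and a TATA box 29 bases before the start. The 76 bases shared by the collagen IV pair hold neither of these and 1 GC box, 16 bases before the start of Col4a1.

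Promoter sequence was matched for 30 of the 47 genes. In the 250 bases before the start, the CCAAT box was found in 11 of the 30, the TATA box in 7 and the GC box in 14, while of 19005 promoters 35.5% held the first, 12.3% the second and 40.3% the third. Of the 17 matched genes that were lower in both lineages, 5 held the CCAAT box, 4 the TATA box and 7 the GC box. A match describes the letters only and marks no binding site.

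All 3 chains of collagen VI, which forms beaded microfibrils around cells, were lower in whole prostate in both lineages, with medians of -2.46 in the vinclozolin lineage and -2.58 in the control lineage. Col6a1 read 142 and 129 units in vinclozolin whole prostate and 128 and 130 units in control whole prostate, against 804 and 827 units in vinclozolin epithelium and 919 and 785 units in control epithelium. Col6a3 read 87.2 and 101 units in vinclozolin whole prostate and 107 and 95.6 units in control whole prostate, against 623 and 570 units in vinclozolin epithelium and 732 and 662 units in control epithelium. Neither gene's groups came close to overlapping. A second, dimmer probe set of Col6a3 gave -1.13 ± 0.13 in the vinclozolin lineage and -1.23 ± 0.13 in the control lineage, against -2.48 and -2.60 for the brighter one, and passed in both. Col6a2, which lies beside Col6a1 on chromosome 20, changed by -2.13 ± 0.17 in the vinclozolin lineage and -2.09 ± 0.17 in the control lineage.

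Of the 10 basement membrane and multiplexin genes, 9 were lower in the vinclozolin lineage and 8 in the control lineage, and all 10 had negative changes in both. Col4a1, a core chain of basement membrane collagen, read 143 and 116 units in vinclozolin whole prostate and 106 and 108 units in control whole prostate, against 751 and 684 units in vinclozolin epithelium and 777 and 793 units in control epithelium. The change was -2.34 ± 0.13 in the vinclozolin lineage and -2.71 ± 0.13 in the control lineage. Col4a2, its partner chain across the shared promoter shown above, read 123 and 84.3 units in vinclozolin whole prostate and 85.6 and 81.3 units in control whole prostate, against 360 and 356 units in vinclozolin epithelium and 413 and 336 units in control epithelium. Both members of the pair were lower on every whole prostate array.

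The laminin chains that assemble with collagen IV ranged more widely. Lamb1 changed by -1.66 ± 0.14 in the vinclozolin lineage and -1.52 ± 0.14 in the control lineage, Lama4 by -1.18 ± 0.18 in the vinclozolin lineage and -1.08 ± 0.18 in the control lineage, and Lamc1 by -0.82 ± 0.13 in the vinclozolin lineage and -1.17 ± 0.13 in the control lineage. Lamc1, the shared gamma 1 chain, read 170 and 141 units in vinclozolin whole prostate and 130 and 132 units in control whole prostate, against 300 and 273 units in vinclozolin epithelium and 319 and 313 units in control epithelium. Lamb2 changed least, by -0.51 ± 0.11 in the vinclozolin lineage (limma adjusted p = 0.0185) and -0.33 ± 0.11 in the control lineage (limma adjusted p = 0.071). Hspg2, encoding the proteoglycan perlecan, was 1.46-fold lower in the vinclozolin lineage and 1.72-fold lower in the control lineage. Col15a1, whose product links basement membranes to the fibres around them, changed by -1.44 ± 0.13 in the vinclozolin lineage and -1.41 ± 0.13 in the control lineage. Nid1, encoding the nidogen that bridges laminin and collagen IV, depended on the probe set. Its brighter probe set gave -1.91 ± 0.16 in the vinclozolin lineage and -1.77 ± 0.16 in the control lineage, and the dimmer one gave 0.01 ± 0.12 and did not pass in the vinclozolin lineage and -0.70 ± 0.12 in the control lineage. Col18a1, the source of endostatin, did not pass on its brightest probe set, with -1.06 ± 0.39 in the vinclozolin lineage and -1.04 ± 0.39 in the control lineage, and its other probe set passed as lower in both.

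The elastic fibre genes were divided. Eln and Fbln1 were lower in both lineages, Fbln2 was higher in the control lineage only, and Fbn1, Fbln5 and Mfap5 did not pass. A dimmer Fbn1 probe set did pass as lower, with -0.70 ± 0.17 in the vinclozolin lineage and -0.79 ± 0.17 in the control lineage. Eln, encoding elastin, read 46.6 and 13.2 units in vinclozolin whole prostate and 30.8 and 30.5 units in control whole prostate, against 160 and 153 units in vinclozolin epithelium and 128 and 136 units in control epithelium. Fbln1, whose product binds elastin and basement membranes, read 75.3 and 63.0 units in vinclozolin whole prostate and 82.0 and 80.3 units in control whole prostate, against 201 and 215 units in vinclozolin epithelium and 168 and 197 units in control epithelium. Both genes had whole prostate arrays entirely under the epithelium arrays. Fbln2, a relative of Fbln1, read 94.7 and 95.1 units in vinclozolin whole prostate and 125 and 113 units in control whole prostate, against 73.9 and 82.2 units in vinclozolin epithelium and 81.7 and 64.3 units in control epithelium. Its change was 0.24 ± 0.14 in the vinclozolin lineage (limma adjusted p = 0.24) and 0.61 ± 0.14 in the control lineage (limma adjusted p = 0.0199). Mfap5, a protein of fibrillin microfibrils, read 473 and 468 units in vinclozolin whole prostate and 515 and 469 units in control whole prostate, against 456 and 488 units in vinclozolin epithelium and 509 and 521 units in control epithelium, and these ranges overlapped across the preparations.

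Dcn, Bgn and Ogn were lower in both lineages among the 6 proteoglycans and small leucine-rich proteins. Dcn, encoding decorin, which coats collagen fibrils, read 1030 and 1088 units in vinclozolin whole prostate and 1280 and 1307 units in control whole prostate, against 2324 and 2208 units in vinclozolin epithelium and 2356 and 2502 units in control epithelium. The change was -1.09 ± 0.11 in the vinclozolin lineage and -0.90 ± 0.11 in the control lineage. Lum, encoding lumican and the neighbour of Dcn on chromosome 7, read 113 and 105 units in vinclozolin whole prostate and 144 and 158 units in control whole prostate, against 109 and 135 units in vinclozolin epithelium and 89.9 and 142 units in control epithelium. Unlike its neighbour it did not pass, with -0.14 ± 0.21 in the vinclozolin lineage and 0.37 ± 0.21 in the control lineage. The control arrays of Lum nonetheless did not overlap between the preparations. Bgn, encoding biglycan, read 161 and 132 units in vinclozolin whole prostate and 118 and 131 units in control whole prostate, against 319 and 324 units in vinclozolin epithelium and 409 and 353 units in control epithelium. Ogn, encoding osteoglycin, read 250 and 223 units in vinclozolin whole prostate and 267 and 241 units in control whole prostate, against 382 and 375 units in vinclozolin epithelium and 484 and 469 units in control epithelium. Both were lower on every whole prostate array. Fmod, the fibril-binding fibromodulin, was close to the threshold with -0.65 ± 0.22 in the vinclozolin lineage (limma adjusted p = 0.0745) and -0.74 ± 0.22 in the control lineage (limma adjusted p = 0.0517). The brightest Vcan probe set passed in neither lineage, with -0.98 ± 0.38 and -0.41 ± 0.38. Dimmer Vcan probe sets, with whole prostate means under the filter, passed as lower in 1 lineage each. They gave -2.12 ± 0.22 in the vinclozolin lineage and -1.08 ± 0.23 in the control lineage.

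Among the 8 glycoproteins and matricellular proteins, Fn1, Sparc, Postn and Mgp were lower and Dpt was higher in both lineages. Sparc, a collagen-binding protein, read 519 and 399 units in vinclozolin whole prostate and 410 and 615 units in control whole prostate, against 1360 and 1291 units in vinclozolin epithelium and 1909 and 1663 units in control epithelium. Fn1, encoding fibronectin, differed less and read 216 and 266 units in vinclozolin whole prostate and 215 and 253 units in control whole prostate, against 335 and 399 units in vinclozolin epithelium and 372 and 435 units in control epithelium. Its change was -0.58 ± 0.17 in the vinclozolin lineage (limma adjusted p = 0.0447) and -0.75 ± 0.17 in the control lineage (limma adjusted p = 0.0191). Fn1 lost its call when any 1 of the 8 arrays was left out of the vinclozolin comparison's model, with adjusted p between 0.0523 and 0.185. In the control lineage Fn1 lost its call under 4 settings (limma adjusted p 0.0556 to 0.113). Mgp in the vinclozolin lineage lost its call under 10 settings, and median centring gave it -0.20 (limma adjusted p = 0.212). Postn in the control lineage lost its call under 8 settings, and median centring gave it -0.29 (limma adjusted p = 0.149). Tnc, Thbs2 and Spp1 did not pass. Spp1, encoding osteopontin, was dim, at 2.9 and 30.5 units in vinclozolin whole prostate and 7.3 and 18.9 units in control whole prostate, against 17.3 and 12.7 units in vinclozolin epithelium and 13.9 and 14.2 units in control epithelium. Thbs2, encoding thrombospondin 2, read 26.1 and 30.1 units in vinclozolin whole prostate and 28.9 and 22.7 units in control whole prostate, against 15.1 and 28.7 units in vinclozolin epithelium and 23.5 and 19.4 units in control epithelium. Neither gene separated the preparations in both lineages.

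Lox and Loxl2, which oxidise lysines of collagen and elastin for crosslinking, were called lower in both lineages, Loxl2 with the limit given below. Lox read 91.7 and 82.2 units in vinclozolin whole prostate and 97.5 and 88.3 units in control whole prostate, against 183 and 192 units in vinclozolin epithelium and 163 and 162 units in control epithelium. Loxl1, which acts on elastin, read 65.9 and 73.2 units in vinclozolin whole prostate and 51.3 and 76.2 units in control whole prostate, against 99.3 and 126 units in vinclozolin epithelium and 112 and 153 units in control epithelium. It changed by -0.58 ± 0.21 in the vinclozolin lineage (limma adjusted p = 0.089) and -0.90 ± 0.21 in the control lineage (limma adjusted p = 0.0236). The brighter Loxl2 probe set read 5.0 and 10 units in vinclozolin whole prostate and 17.7 and 5.4 units in control whole prostate, against 67.3 and 62.7 units in vinclozolin epithelium and 64.0 and 60 units in control epithelium. Its whole prostate means were under the filter on low signal, so it was tested because of its epithelium level, and the size of its change is uncertain. It gave -1.79 ± 0.22 in the vinclozolin lineage and -1.54 ± 0.22 in the control lineage, and the dimmer one, with -0.54 ± 0.23 and -0.16 ± 0.23, passed in neither.

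Thy1, Pdgfra and Clec3b of the 4 fibroblast markers were lower in both lineages and Serping1 did not pass. Thy1, a surface glycoprotein of fibroblasts, read 44.9 and 57.0 units in vinclozolin whole prostate and 43.7 and 45.6 units in control whole prostate, against 334 and 250 units in vinclozolin epithelium and 320 and 319 units in control epithelium. Pdgfra, the receptor for platelet-derived growth factor A on mesenchymal cells, read 177 and 176 units in vinclozolin whole prostate and 214 and 228 units in control whole prostate, against 425 and 364 units in vinclozolin epithelium and 492 and 424 units in control epithelium. Thy1 was 4.58-fold lower in the vinclozolin lineage and 5.53-fold lower in the control lineage, and Pdgfra was 2.13-fold lower in the vinclozolin lineage and 1.99-fold lower in the control lineage. Clec3b, encoding tetranectin, a plasminogen-binding protein, read 32.9 and 38.6 units in vinclozolin whole prostate and 42.2 and 48.5 units in control whole prostate, against 105 and 85.0 units in vinclozolin epithelium and 64.9 and 95.3 units in control epithelium. Its call in the control lineage (limma adjusted p = 0.0468) was lost under 11 settings, with adjusted p from 0.0536 to 0.197. A dimmer Clec3b probe set did not pass, with -0.53 ± 0.25 in the vinclozolin lineage and -0.70 ± 0.25 in the control lineage. Serping1, encoding the C1 inhibitor of complement, read 242 and 271 units in vinclozolin whole prostate and 201 and 223 units in control whole prostate, against 219 and 269 units in vinclozolin epithelium and 312 and 279 units in control epithelium. Its levels overlapped between the preparations in the vinclozolin lineage and were apart in the control lineage.

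Other fibroblast genes did not move as 1 block. Of 14 further fibroblast markers tested, 4 were lower and 3 higher in whole prostate in the vinclozolin lineage, and 7 lower and 4 higher in the control lineage. All probe sets gave 13.1% lower and 14.2% higher calls in the vinclozolin lineage, and 12.9% and 15% in the control lineage. Vim, encoding vimentin, changed by -1.16 ± 0.11 in the vinclozolin lineage and -1.64 ± 0.11 in the control lineage. It read 384 and 394 units in vinclozolin whole prostate and 305 and 310 units in control whole prostate, against 909 and 870 units in vinclozolin epithelium and 969 and 1022 units in control epithelium. Scara5, a ferritin receptor marking a subset of adventitial fibroblasts in mouse and human, was higher and read 124 and 130 units in vinclozolin whole prostate and 135 and 122 units in control whole prostate, against 6.6 and 3.1 units in vinclozolin epithelium and 2.1 and 1.4 units in control epithelium. The epithelium means of Scara5 were under the filter on low signal, so it was tested because of its whole prostate level, and the size of its change is uncertain. The summed level of the 17 markers on the array, to which Gsn alone gave 2217 and 2156 units in vinclozolin whole prostate, was 4586 and 4384 units in vinclozolin whole prostate and 4907 and 4981 units in control whole prostate, against 4532 and 4604 units in vinclozolin epithelium and 4915 and 4866 units in control epithelium.

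Marker lists of other cell types also differed between the preparations. Their counts stand beside 13.1% of all probe sets called lower and 14.2% higher in the vinclozolin lineage. The control lineage had 12.9% lower and 15% higher. Smooth muscle markers were lower for 9 of 11 genes in the vinclozolin lineage and 8 in the control lineage, basal epithelial markers for 8 and 7 of 10, and endothelial markers for 5 of 10 in each, of which 4 were shared. Basal markers summed to 1143 and 1170 units in vinclozolin whole prostate and 1166 and 1182 units in control whole prostate, against 4468 and 4294 units in vinclozolin epithelium and 4363 and 4489 units in control epithelium. Adipocyte markers ran the other way, with 6 of 9 higher in the vinclozolin lineage and 5 in the control lineage. The 10 adipocyte markers on the array summed to 2548 and 2436 units in vinclozolin whole prostate and 2696 and 2494 units in control whole prostate, against 390 and 305 units in vinclozolin epithelium and 378 and 362 units in control epithelium. Of the macrophage markers, 8 of 11 were higher and 2 lower in the vinclozolin lineage, and 4 were higher in the control lineage. Of 12 skeletal muscle markers, 2 were higher and 3 lower in the vinclozolin lineage, and 8 were higher and 3 lower in the control lineage. The 14 skeletal muscle markers on the array summed to 1665 and 1710 units in vinclozolin whole prostate and 3477 and 3788 units in control whole prostate, against 6829 and 6932 units in vinclozolin epithelium and 7905 and 7776 units in control epithelium. Such a sum is set mostly by its brightest genes. The median change of the 12 tested was -0.03 in the vinclozolin lineage and 1.79 in the control lineage. The part of any of these cell types in the members' changes was not tested.

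Genes that work with the matrix were followed as 4 further lists. Beside these lists, 27.4% of all probe sets were called in the vinclozolin lineage, 13.1% lower and 14.2% higher. In the control lineage that share was 27.8%, with 12.9% lower and 15% higher. Of 16 collagen processing genes tested, 4 were lower and 0 higher in each lineage, and 3 of the lower ones were shared. Pcolce, an enhancer of procollagen cleavage, changed by -1.77 ± 0.18 in the vinclozolin lineage and -1.94 ± 0.18 in the control lineage, and Serpinh1, the collagen chaperone HSP47, by -1.54 ± 0.18 in the vinclozolin lineage and -1.87 ± 0.18 in the control lineage. Of 18 genes of the TGF-beta pathway, a main inducer of matrix genes, 7 were lower and 1 higher in both lineages. Ltbp4, which anchors latent TGF-beta in the matrix, changed by -1.57 ± 0.17 in the vinclozolin lineage and -1.74 ± 0.17 in the control lineage. Ccn2, a matricellular target of that pathway, read 727 and 653 units in vinclozolin whole prostate and 976 and 890 units in control whole prostate, against 3127 and 3254 units in vinclozolin epithelium and 3778 and 3472 units in control epithelium. Tgfbi, also induced by TGF-beta, was the higher one, at 128 and 122 units in vinclozolin whole prostate and 92.2 and 114 units in control whole prostate, against 35.9 and 35.5 units in vinclozolin epithelium and 42.1 and 36.4 units in control epithelium. Of 35 other matrix genes, 19 were lower and 3 higher in the vinclozolin lineage, and 17 lower and 3 higher in the control lineage. Sparcl1, a relative of Sparc, changed by -2.29 ± 0.11 in the vinclozolin lineage and -1.92 ± 0.11 in the control lineage, and Mfap4, a protein of elastic fibres, by -2.28 ± 0.15 in the vinclozolin lineage and -2.04 ± 0.15 in the control lineage. Of 19 matrix receptors, 5 were lower in the vinclozolin lineage, 7 were lower in the control lineage, and 0 were higher in either. Itgb1, the common beta chain of collagen and laminin receptors, changed by -1.03 ± 0.11 in the vinclozolin lineage and -1.60 ± 0.11 in the control lineage.

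The comparison of lineages, the study's own question, gave a different outcome in whole prostate at 180 days. None of the 47 genes was called, while 1.74% of all probe sets were (379), 0.819% higher and 0.925% lower in the vinclozolin lineage. Of these calls 47% were higher, and 36.1% were with median centring. By unadjusted p under 0.05, 6 of the 47 genes passed, beside 18.7% of all probe sets. With limma's trended robust prior, Mgp was called higher and Dcn and Lamb2 lower, beside 8.35% of all probe sets. Changes were positive for 21 genes and negative for 26, their median was -0.06 beside -0.01 over all probe sets, and the largest in size was 0.81. The 2 arrays of each lineage did not overlap for 9 genes that were higher and 16 that were lower in the vinclozolin lineage, and over all probe sets these shares were 26.1% and 27.8%, or 53.9% in all. Of the 47 genes, 43 had a 95% interval within 1 log2 unit of 0 on both sides. Because of the added 16, that bound is wider than a 2-fold change in intensity for dim probe sets. The median interval extended 0.34 log2 units either way, before any adjustment for the number of probe sets. Changes smaller than that were mostly not resolved.

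The main collagens lay near 0. Col1a1 changed by 0.17 ± 0.13 (95% interval -0.14 to 0.49), Col1a2 by -0.11 ± 0.14 (95% interval -0.43 to 0.22) and Col3a1 by -0.03 ± 0.11 (95% interval -0.30 to 0.25) in vinclozolin against control whole prostate. Fn1 changed by 0.04 ± 0.17 (95% interval -0.36 to 0.44). The 3 collagen VI genes lay between -0.09 and 0.06.

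Lamb2, the laminin beta 2 chain, had the lowest p of the brightest probe sets. It read 123 and 109 units in vinclozolin whole prostate and 172 and 167 units in control whole prostate, so the lineages did not overlap, and the change was -0.50 ± 0.11 (limma adjusted p = 0.0872). Postn, encoding periostin, read 71.0 and 74.2 units in vinclozolin whole prostate and 109 and 107 units in control whole prostate, with -0.48 ± 0.14 (limma adjusted p = 0.146). Dcn, with the values given above, changed by -0.29 ± 0.11 (limma adjusted p = 0.229), and Pdgfra by -0.30 ± 0.13 (limma adjusted p = 0.287). All 4 genes had both vinclozolin arrays under both control arrays without passing the test. Fbn1, encoding the microfibril protein fibrillin 1, read 205 and 196 units in vinclozolin whole prostate and 276 and 234 units in control whole prostate. Col18a1 read 6.7 and 35.1 units in vinclozolin whole prostate and 36.0 and 24.8 units in control whole prostate, where its arrays overlapped.

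Vcan, encoding the large proteoglycan versican, had the largest negative change of the brightest probe sets and rested on dim values. Its brightest probe set read 23.8 and 2.9 units in vinclozolin whole prostate and 33.9 and 29.5 units in control whole prostate, with -0.80 ± 0.38 (limma adjusted p = 0.323). Another Vcan probe set had the lowest adjusted p of all 73 member probe sets, reading 1.3 and 1.4 units in vinclozolin whole prostate and 28.4 and 12.2 units in control whole prostate (-1.03 ± 0.22, limma adjusted p = 0.073). The remaining 2 tested Vcan probe sets gave 0.36 ± 0.31 and 0.05 ± 0.23, so the probe sets of this gene disagreed in sign. These 2 and the probe set of lowest adjusted p had whole prostate means under the filter on low signal. They were tested because of their epithelium levels.

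On the positive side stood Fbln5, encoding an elastic fibre assembly protein. It read 61.4 and 69.8 units in vinclozolin whole prostate and 31.0 and 29.7 units in control whole prostate, and the change was 0.81 ± 0.31 (95% interval 0.07 to 1.56, limma adjusted p = 0.233). Mgp, encoding matrix Gla protein, an inhibitor of calcification, read 2721 and 2747 units in vinclozolin whole prostate and 2252 and 2149 units in control whole prostate, with 0.31 ± 0.11 (limma adjusted p = 0.207). Fmod read 36.4 and 38.7 units in vinclozolin whole prostate and 34.7 and 15.4 units in control whole prostate. All 3 genes had both vinclozolin arrays above both control arrays and did not pass. Next in size were Serping1 with 0.25 ± 0.15, Col4a2 with 0.25 ± 0.18 and Col4a1 with 0.24 ± 0.13.

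**Figure D4:**
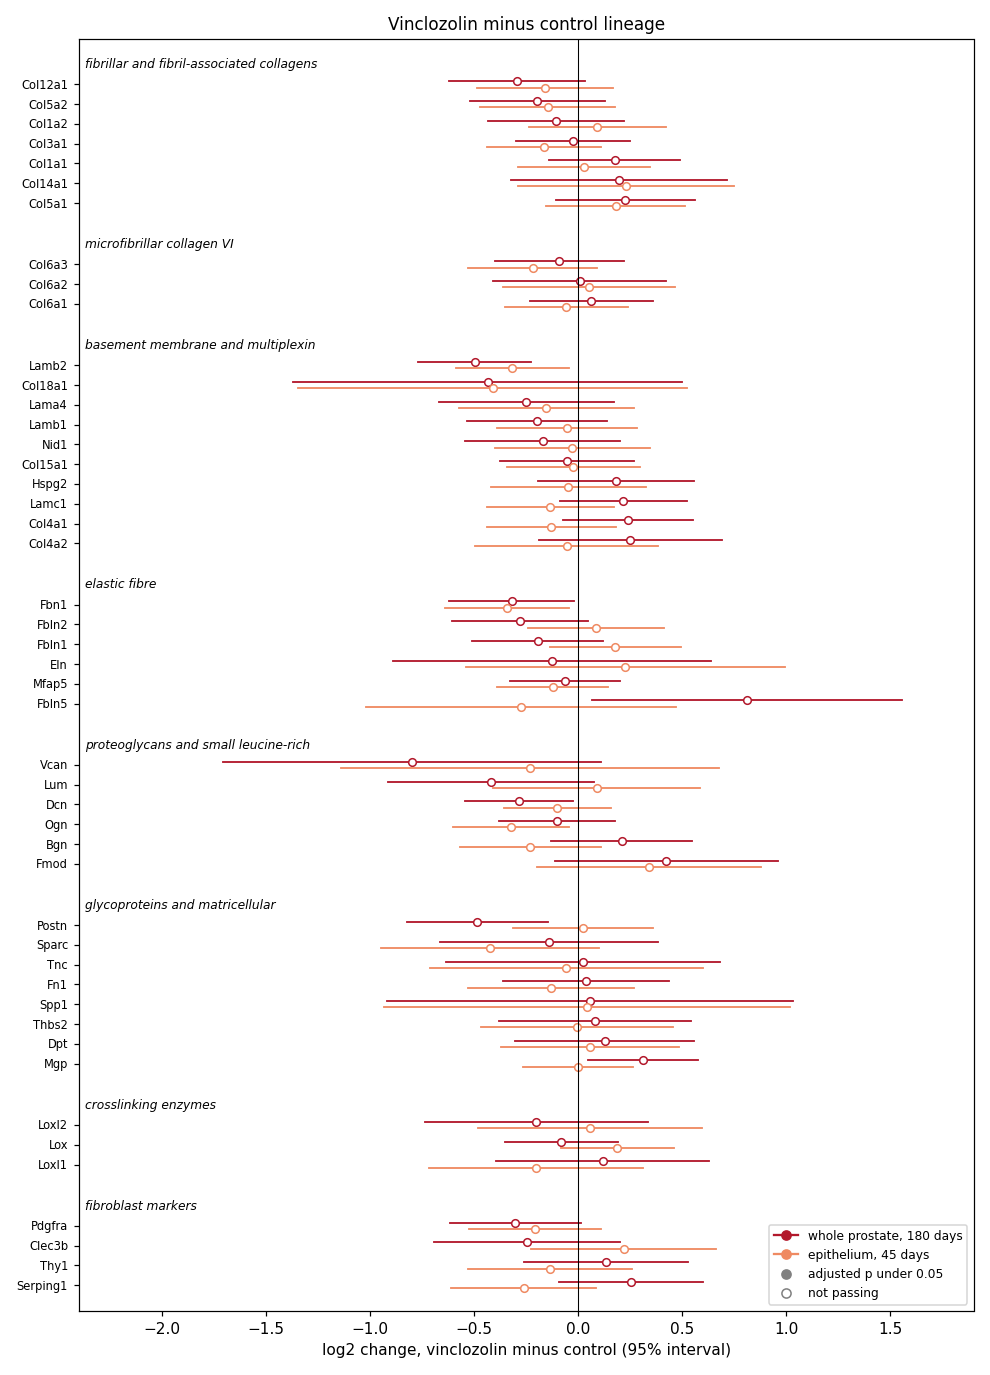
Log2 change of each of the 47 genes, vinclozolin minus control lineage, in whole prostate at 180 days (dark red) and epithelium at 45 days (orange), ordered by role. Bars are 95% intervals, and open points did not pass at an adjusted p under 0.05. All points are open, and the changes run from -0.80 to 0.81 in whole prostate and from -0.42 to 0.34 in epithelium.

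In epithelium at 45 days, 0 of the 47 genes were called between the lineages, beside 0.0092% of all probe sets (2), with 0.0046% higher and 0.0046% lower. This limma count of 0 stayed 0 under every other setting run. By unadjusted p under 0.05, 3 genes passed, beside 11.4% of all probe sets. Changes were positive for 17 genes and negative for 30, with a median of -0.06 beside 0.00 over all probe sets. Arrays of the lineages were apart for 5 genes in the higher and 15 in the lower direction, beside 19.7% of all probe sets in each direction and 39.4% in all. All 10 basement membrane and multiplexin genes had negative changes, with a median of -0.09, and none passed. The 95% interval lay within 1 log2 unit of 0 for 43 genes here too.

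Sparc, with the array values above, had the largest change of the brightest probe sets, -0.42 ± 0.22 (limma adjusted p = 0.523), followed by Col18a1 at -0.41 ± 0.39. The other probe sets of these genes gave -0.13 ± 0.13 for Sparc and 0.04 ± 0.25 for Col18a1. Col18a1 read 42.0 and 71.5 units in vinclozolin epithelium and 86.1 and 71.9 units in control epithelium. Lamb2 read 166 and 178 units in vinclozolin epithelium and 217 and 220 units in control epithelium, with -0.32 ± 0.11 (limma adjusted p = 0.383). Fbn1 read 244 and 268 units in vinclozolin epithelium and 325 and 332 units in control epithelium, with -0.34 ± 0.12 (limma adjusted p = 0.393), and Ogn changed by -0.32 ± 0.12 (limma adjusted p = 0.389). On the brightest probe sets these 3 genes, none of which passed, were the ones with an unadjusted p under 0.05. Their arrays did not overlap between lineages. Over all 73 member probe sets 7 had such a p, beside 11.4% of all probe sets. The lowest belonged to dimmer probe sets of Ogn (-0.55 ± 0.15, limma adjusted p = 0.285) and Nid1 (-0.445 ± 0.12, limma adjusted p = 0.293). Fmod read 62.2 and 74.5 units in vinclozolin epithelium and 48.6 and 52.4 units in control epithelium, the largest positive change of the brightest probe sets at 0.34 ± 0.22. Col14a1 and Eln followed with 0.23 ± 0.22 and 0.23 ± 0.32, then Clec3b with 0.22 ± 0.19, Lox with 0.19 ± 0.11 and Col5a1 with 0.18 ± 0.14.

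The change between lineages was also compared between the preparations, as the effect in whole prostate minus the effect in epithelium. None of the 47 genes passed this test, beside 0.29% of all probe sets, and 3 genes had an unadjusted p under 0.05, beside 13.5% of all probe sets. The changes in the 2 preparations, which share no arrays, had the same sign for 25 of the 47 genes. On the brightest probe sets, differences ran from -0.57 for Vcan to 1.09 for Fbln5. A dimmer Vcan probe set, with a whole prostate mean under the filter on low signal, gave -1.56 ± 0.30 (limma adjusted p = 0.131). Fbln5 in epithelium read 37.7 and 26.4 units in the vinclozolin lineage and 65.8 and 24.8 units in the control lineage, so its control arrays lay on both sides of its vinclozolin arrays, and the difference of 1.09 ± 0.44 did not pass (limma adjusted p = 0.358). Postn in epithelium read 187 and 143 units in the vinclozolin lineage and 159 and 162 units in the control lineage, and Vcan 44.6 and 32.3 units in the vinclozolin lineage and 65.0 and 33.8 units in the control lineage. Serping1 differed by 0.52 ± 0.21 and Postn by -0.51 ± 0.20, and both fell short of the threshold (limma adjusted p = 0.351 and 0.348). Lum at -0.51 ± 0.29, Clec3b at -0.46 ± 0.26 and Bgn at 0.44 ± 0.20 did not pass either. For 35 of the 47 genes the 95% interval of the difference lay within 1 log2 unit of 0.

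Probe sets of the same gene were also compared with each other. Of 22 genes with at least 2 tested probe sets, signs differed for 2, Col12a1 and Nid1, between whole prostate and epithelium in the vinclozolin lineage, and for 0 in the control lineage. For vinclozolin against control the signs differed for 15 of the 22 genes in whole prostate and for 6 in epithelium. Among the 15 were Col4a1, Col5a1, Col5a2, Col6a3, Sparc, Lox, Nid1, Lamc1, Thy1 and Clec3b. Changes spanned over 1 log2 unit between probe sets of 5 genes in each lineage when the preparations were compared, including Col6a3, Loxl2 and Nid1 in both lineages. When the lineages were compared, such a span was found for 1 gene, Vcan, in whole prostate and for 0 in epithelium, where changes lay nearer to 0.

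Some genes outside the 47 did differ between the lineages in whole prostate, where 1.74% of all probe sets were called. Efemp1, encoding fibulin 3, a matrix glycoprotein related to the fibulins above, read 475 and 520 units in vinclozolin whole prostate and 1793 and 1818 units in control whole prostate. The change was -1.83 ± 0.12 (limma adjusted p = 0.00194). Ccn3, a matricellular relative of Ccn2, read 165 and 158 units in vinclozolin whole prostate and 50.9 and 42.3 units in control whole prostate, and rose by 1.505 ± 0.167 (limma adjusted p = 0.0128). They were the 2 genes called among 35 other matrix genes. Among 19 matrix receptors, 2 were lower. Itga1, the alpha chain of a collagen-binding integrin, read 20.2 and 15.1 units in vinclozolin whole prostate and 80.2 and 71.0 units in control whole prostate (-1.45 ± 0.16, limma adjusted p = 0.0125). Sdc2, a cell surface heparan sulphate proteoglycan, changed by -0.999 ± 0.125 (limma adjusted p = 0.0189), and its other 2 probe sets also passed as lower. The calls of Ccn3, Itga1 and Sdc2 each ended when any 1 of the 4 whole prostate arrays was left out, with adjusted p from 0.0566 to 0.152. No collagen processing gene and no TGF-beta pathway gene was called in this comparison. In epithelium, none of the 4 lists held a called gene, and with the trended robust prior Efemp1 was called lower there (-0.498, limma adjusted p = 0.00713).

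Marker lists of other cells also differed between the lineages in whole prostate, where 0.819% of all probe sets were called higher and 0.925% lower. Of 12 skeletal muscle markers, 7 were lower in the vinclozolin lineage, and their median change was -1.55. Csf1r and Fcgr3a of the 11 macrophage markers were higher, with 1.11 ± 0.15 and 1.17 ± 0.19. Of the 11, 7 had positive and 4 negative changes, with a median of 0.45. The sum of the 12 macrophage markers on the array, set mostly by its brightest genes, was 5361 and 6175 units in vinclozolin whole prostate against 9087 and 8479 units in control whole prostate. Esam of the 10 endothelial markers was higher, with 0.73 ± 0.12. No smooth muscle, other fibroblast, luminal, basal, adipocyte or Schwann cell marker was called between lineages, and the part of these cell types in the lineage values was not tested.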

How the data were processed

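RNA pools of rat ventral prostate were measured on 8 arrays in 4 groups of 2, taken from the sample titles. Each deposited file holds 31099 linear intensities, 1 for each probe set. The software that made them, not given in the sources used here, is left unnamed. Judged by the deposited intensities, the authors had brought every array to a 2% trimmed mean of 125.05. Extraction with Trizol and biotin labelling are stated per the labels' protocols.

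Here 57 control probe sets were removed, intensities were taken to log2(value + 16) and quantile normalised, and means below the 30th percentile (13.7 units) were filtered out, which kept 21729 probe sets. Of 31042 non-control probe sets, 20826 carried 1 gene symbol, 436 several and 9780 none in the platform annotation. Group means of all 8 arrays were fitted with limma 3.58.1 in R 4.3.3 (two-sided, 4 residual and 2.62 prior degrees of freedom), and the 5 contrasts were adjusted by Benjamini-Hochberg over all probe sets. The fit was tested on simulated data. Tables and plots were made with Python 3.11.15, pandas 2.3.3 and matplotlib 3.10.9. With 2 arrays a group, their number limits the precision.

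Of the members, array values are given for the 6 largest changes each way per comparison on the brightest probe set, and for Col1a1, Col3a1, Fn1, Dcn, Pdgfra and Spp1. Of other lists, up to 3 genes of lowest p are named, with Vim, Acta2, Tgfbi and a few more chosen after their values were seen. The members, lists and tests were chosen with earlier results of these data known. Replicate numbers do not pair the arrays: deviations of same-numbered arrays from their group means correlated at 0.003 in whole prostate and 0.029 in epithelium.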

Additional observations from a re-analysis of the deposited data

Results flagged for a closer look

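Efemp1 differed in its lineage effect between the preparations, by a test of the difference itself. It read 475 and 520 units in vinclozolin whole prostate and 1793 and 1818 units in control whole prostate, a change of -1.83 ± 0.12. In epithelium it read 711 and 662 units in the vinclozolin lineage and 1016 and 936 units in the control lineage, a change of -0.50 ± 0.12 (limma adjusted p = 0.259, or 0.00713 with the trended robust prior). The effect in whole prostate minus the effect in epithelium was -1.331 ± 0.163 (limma adjusted p = 0.0422). That call ended under 11 settings, among them leaving out any 1 of the 8 arrays, with adjusted p from 0.0839 to 0.241, while the value stayed negative in each. Between preparations, Efemp1 was lower in whole prostate in the vinclozolin lineage (-0.45 ± 0.12, a call lost under 10 settings) and higher in the control lineage (0.88 ± 0.12). None of the 47 members passed the same test.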

How the results depend on the processing

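Leaving out each array in turn kept 0 members called between the lineages. For whole prostate against epithelium, 28 to 31 members were called lower and 2 to 3 higher in the vinclozolin lineage (median -1.133 to -0.998), and 27 to 31 lower and 2 to 3 higher in the control lineage (median -0.999 to -0.899). A trended robust prior called 1 member higher (Mgp, adjusted p = 0.00523) and 2 lower (Dcn, adjusted p = 0.0152, and Lamb2, adjusted p = 0.0269) between lineages in whole prostate, where it called 8.35% of all probe sets (1814). Median centring gave member medians of -0.896 in the vinclozolin and -0.754 in the control lineage between preparations, and shifted the median of all probe sets by 0.113 and 0.141. A pseudocount of 1 gave -1.162 and -1.092. Median centring moved the share of higher calls among all probe sets to 36.1% from 47% between lineages in whole prostate, and between preparations to 67.5% from 52.1% in the vinclozolin and to 71.1% from 53.7% in the control lineage. Of the called members, 29 in the vinclozolin and 28 in the control lineage passed under every setting. The counts without 1 array include calls gained, such as Fbln5 (higher in the vinclozolin lineage) and Fmod and Tnc (lower in both lineages, each under some arrays left out). The calls lost under some setting were those of Fn1, Hspg2, Mgp, Lamb2 and Ogn in the vinclozolin lineage and Fn1, Clec3b, Postn, Eln, Fbln2, Loxl1 and Hspg2 in the control lineage. On the values as deposited 43.8% of vinclozolin and 46.2% of control preparation calls were higher. The cause of these shifts was not tested, and no called value changed sign.

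Over all probe sets, 379 calls between lineages in whole prostate became 235 with a pseudocount of 1, 200 without the filter, 65 with the 4 arrays alone and 24 to 225 without 1 array. In epithelium 2 calls became 205 with the trended prior and 0 with a pseudocount of 1, without the filter or without any 1 array. The difference of effects went from 63 calls to 540 with the trended prior, 40, 32 and 5 to 19 without 1 array. With the replicate block, 32, 0 and 5 probe sets were called in these 3 comparisons and 0 members, with medians of -0.062, -0.056 and 0.021, and the numbers do not pair the arrays. Between preparations, 5946 calls became 3332 to 6022 in the vinclozolin and 6051 became 2648 to 5789 in the control lineage without 1 array. Signal over background limits Spp1, Vcan and Loxl2, whose whole prostate values lie near the filter.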
